A study of Mus musculus with 7 samples.

Results

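The genes described are 10 through which microglia sense extracellular nucleotides and related signals: the P2Y receptors P2ry12, P2ry13 and P2ry6, the P2Y-like receptor Gpr34, the ATP-gated channels P2rx4 and P2rx7, the ectoenzymes Entpd1 and Nt5e, the adenosine receptor Adora3, and the potassium channel Kcnk13. They were taken by symbol from a count table of 23420 genes. All 10 were found and 9 had enough counts to be tested among 11991 genes. The libraries were made from poly(A) RNA of microglia, the macrophages that live in brain tissue, which were sorted as CD11b+, CD45low, CX3CR1+ cells from cortices of mice aged 30 days. In the cKO group (n = 4) the mice were Tmem119creErt2+ Srgap2f/f, carrying floxed alleles of Srgap2, a gene for a membrane-binding regulator of the actin cytoskeleton, and a tamoxifen-inducible recombinase driven by the microglial gene Tmem119. The WT group (n = 3) were Srgap2f/f littermates without the recombinase. Mice of both groups were gavaged with tamoxifen, 2 doses of 75 ug per g body weight at postnatal days 8 and 10. The series asks how Srgap2-deficient microglia differ from control microglia at steady state in the juvenile brain. Each library came from a separately numbered mouse, so the tests measure the spread between mice.

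Damaged or active cells release ATP, which microglia read with P2 receptors. P2X receptors are ion channels opened by ATP itself, whereas P2Y receptors couple nucleotides to G proteins. Enzymes on the cell surface cut ATP to ADP, AMP and adenosine in turn, so that the agonist changes from one receptor class to the next. P2RY12, a defining surface protein of homeostatic microglia, steers process extension towards ADP, and the potassium channel THIK-1, encoded by Kcnk13, sets the resting potential and is needed for surveillance of the tissue by microglial processes.

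The promoters of P2ry12, P2rx7 and Adora3 are shown because, among the 8 members with a promoter in the RefSeq-derived table (build GRCm38.p6), these 3 hold the letters AGGAAGT, the core bound by PU.1, the lineage factor of macrophages. Each window runs from 250 bases before to 50 bases after an annotated start and is written 5′ to 3′ on the gene's strand, with the motif in capitals (ACTTCCT where it lies on the other strand). P2ry12 is at chr3:59262936-59263235 (minus strand), the P2rx7 window at chr5:122650133-122650432 (plus strand) and Adora3 at chr3:105904171-105904470 (plus strand).
P2ry12: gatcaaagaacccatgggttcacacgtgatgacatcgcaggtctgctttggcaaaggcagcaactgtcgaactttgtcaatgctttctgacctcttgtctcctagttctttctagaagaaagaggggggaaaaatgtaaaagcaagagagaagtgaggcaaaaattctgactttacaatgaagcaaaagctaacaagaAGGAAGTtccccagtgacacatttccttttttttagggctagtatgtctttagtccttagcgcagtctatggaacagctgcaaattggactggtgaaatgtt
P2rx7: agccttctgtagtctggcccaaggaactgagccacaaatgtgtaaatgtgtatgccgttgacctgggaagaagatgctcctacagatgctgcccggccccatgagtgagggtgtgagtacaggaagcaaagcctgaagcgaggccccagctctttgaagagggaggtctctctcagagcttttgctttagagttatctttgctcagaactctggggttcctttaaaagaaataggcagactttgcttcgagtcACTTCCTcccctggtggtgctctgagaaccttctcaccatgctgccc
Adora3: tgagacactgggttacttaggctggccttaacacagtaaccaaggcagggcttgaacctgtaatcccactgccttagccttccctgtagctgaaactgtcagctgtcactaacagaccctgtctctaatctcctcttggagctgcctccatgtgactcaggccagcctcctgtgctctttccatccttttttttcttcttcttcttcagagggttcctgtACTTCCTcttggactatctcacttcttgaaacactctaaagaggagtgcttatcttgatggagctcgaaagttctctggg
The motif was searched on both strands. It was found in 3 of the 10 windows of the members (P2rx7 and Entpd1 have 2 windows each) and in 9.35% of 32851 windows of that length over all genes. The letters TGTGGTT, a core bound by RUNX factors, were in 0 of the 10 windows and in 5.27% of all windows. These matches describe the letters in the windows and were not linked to binding or to expression.

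Total counts ranged from 27016173 to 35707304 per library. Levels are in CPM, that is, counts divided by a library size scaled with the TMM method, and are given as mean ± SD. Srgap2 was at 344, 257, 275 and 212 CPM in the 4 cKO libraries (replicates 1 to 4, an order kept throughout) and at 979, 691 and 693 CPM in the 3 WT libraries, so the deleted gene was lower in every cKO library (log2 fold change −1.53, SE 0.17, adjusted p = 0.0053). Reads outside the deleted part are included. Tmem119, the gene that drives the recombinase, fell as well, from 6557 ± 571 CPM (SD, n = 3) in WT to 3707 ± 716 CPM (SD, n = 4) in cKO (log2 fold change −0.82, SE 0.15, adjusted p = 0.046). Only cKO mice carried the recombinase, so its effects and those of the Srgap2 deletion cannot be told apart. Xist was above 69 CPM in cKO replicates 2 and 4 and WT replicates 2 and 3 and under 1 CPM in the other libraries, which had Y-linked Ddx3y at 27.2 to 30.4 CPM, so both groups held mice of both sexes. The labels name no sequencing batch.

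Per kilobase of transcript, P2ry12 stood highest of the members and the order was the same in both groups. In WT the mean level was 1270 CPM per kb for P2ry12 and 738 CPM per kb for P2ry13, followed by Entpd1 (599), Gpr34 (568), P2ry6 (255), P2rx7 (187), Adora3 (110), P2rx4 (65.5) and Kcnk13 (54.5). These levels placed P2ry12 at rank 45, P2ry13 at rank 85, Entpd1 at rank 111 and Gpr34 at rank 119 of 11918 tested genes with a known length, against rank 1975 for Kcnk13. The WT libraries overlapped between Entpd1 and Gpr34 and between P2rx4 and Kcnk13, so the order within these pairs was within the spread between mice. In cKO the ranges of P2ry13 and Entpd1 overlapped too. Nt5e, the enzyme CD73 that turns AMP into adenosine, was near zero: it had 3 counts in WT replicate 3, 1 count in cKO replicate 4 and 0 counts in the other 5 libraries, and it was not tested.

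None of the 9 members tested passed the threshold (edgeR quasi-likelihood test, adjusted p under 0.05), in either direction. Of all genes tested, 0.359% passed, 0.317% higher and 0.0417% lower in cKO. 8 members were below the WT level, with log2 fold changes from −0.26 to −0.07, and P2ry12 was above it at 0.09. The median was −0.18, and −0.01 over all genes tested, of which 51.9% were below 0. At an unadjusted p under 0.05, 1 member was lower (Adora3) and 0 were higher, beside 6.87% of all genes lower and 9.65% higher. DESeq2 and limma-voom also called 0 members, beside 4.49% and 0.392% of all genes. All cKO libraries lay below all WT libraries for 2 members, Adora3 and P2rx7, where 7.2% of all genes tested did so. These are the figures for the members as a group, and no test was made over them. Sex and the run of mouse numbers were also looked at within their own classes, as values without a test. Between libraries with Xist (2 cKO, 2 WT) 7 of the 9 members were lower in cKO, and between those without it (2 cKO, 1 WT) 8 were. In the lower run of mouse numbers (2 cKO, 1 WT) 9 were lower, and in the higher run (2 cKO, 2 WT) 7 were. In WT both splits set replicate 1 apart from replicates 2 and 3. The counts therefore share their WT libraries and do not separate sex from the run of mouse numbers. Bulk counts do not separate fewer cells expressing a gene from less RNA per cell.

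**Figure D1:**
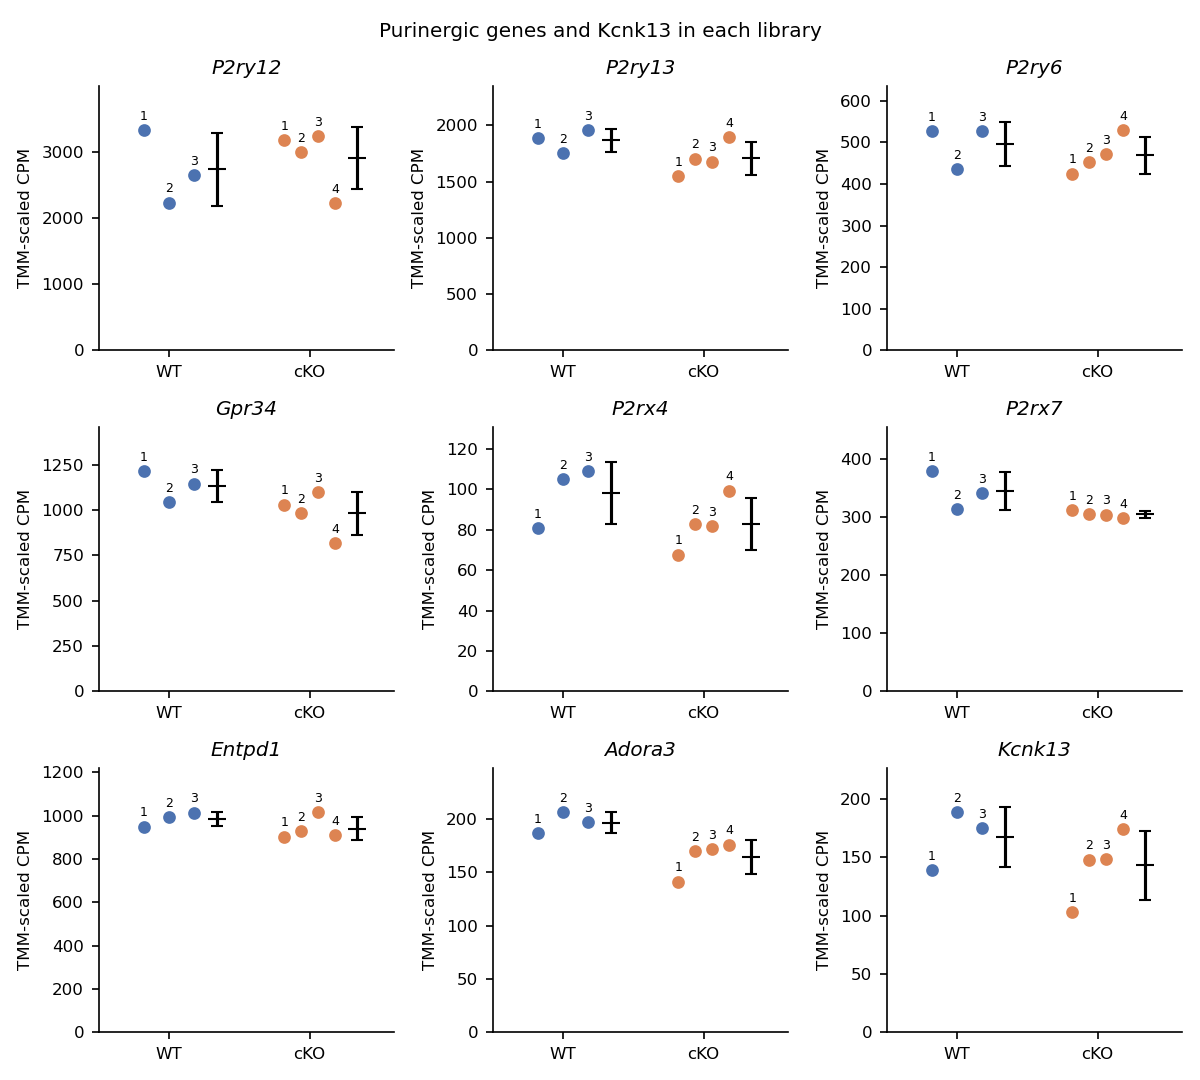
Level of the 9 tested members (TMM-scaled CPM, axes from 0) in each library, numbered by replicate, with WT in blue and cKO in orange and the mean ± SD of each group in black. The cKO libraries lie below the WT libraries in the Adora3 and P2rx7 panels and overlap with them in the other 7.

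Among the ADP receptors, P2ry12, whose product signals through inhibitory G proteins, was at 3183, 2993, 3235 and 2228 CPM in cKO and at 3332, 2231 and 2652 CPM in WT. The groups overlapped fully, with a low library in each (2228 and 2231 CPM), both with Xist. Every library without Xist was above every library with it. Among the libraries with Xist the mean was 2611 CPM in cKO and 2441 CPM in WT (n = 2 each). Among those without it the mean was 3209 CPM in cKO (n = 2) and 3332 CPM in WT (n = 1). The part of sex in this spread was not tested. The log2 fold change over all libraries was 0.09 (SE 0.16, adjusted p = 0.84), whose 95% interval of −0.27 to 0.45 spans 0.828-fold to 1.36-fold of WT. Without WT replicate 2 the sign turned (−0.046). Without WT replicate 1, the only WT library without Xist, the value was 0.25. P2ry13, the neighbouring gene and also an ADP receptor, was at 1546, 1704, 1677 and 1896 CPM in cKO and at 1888, 1751 and 1958 CPM in WT. Here 3 of the 4 cKO libraries lay below every WT library and cKO replicate 4 lay among them (log2 fold change −0.13, SE 0.11, adjusted p = 0.60, interval −0.37 to 0.11).

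The UDP receptor P2ry6, which promotes phagocytosis, was at 425, 452, 471 and 529 CPM in cKO and at 527, 436 and 526 CPM in WT. Its highest library was a cKO library and its means of 469 ± 44.4 and 496 ± 52.6 CPM were less than 1 SD apart (log2 fold change −0.08, SE 0.12, adjusted p = 0.79). Without WT replicate 2 the value was −0.18, and without WT replicate 1 it was −0.035. Gpr34, a receptor for lysophosphatidylserine that resembles P2Y receptors in sequence, was at 1028, 982, 1098 and 818 CPM in cKO and at 1214, 1041 and 1144 CPM in WT. Only cKO replicate 3 reached into the WT range (log2 fold change −0.21, SE 0.12, adjusted p = 0.43, interval −0.47 to 0.06). Without cKO replicate 4, the lowest library, the value was −0.13. Gpr34 is X-linked. Among the libraries with Xist its mean was 900 CPM in cKO against 1092 CPM in WT (n = 2 each), and among those without it 1063 CPM in cKO (n = 2) and 1214 CPM in WT (n = 1).

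The ATP-gated channels were both lower on average in cKO, without passing. P2rx4, which admits calcium at low ATP, was at 67.6, 82.6, 81.6 and 99.3 CPM in cKO and at 80.6, 105 and 109 CPM in WT. The groups overlapped through WT replicate 1 (log2 fold change −0.25, SE 0.15, adjusted p = 0.44, interval −0.57 to 0.08). P2rx7, which needs high ATP and triggers the NLRP3 inflammasome, was at 312, 305, 304 and 298 CPM in cKO and at 380, 314 and 341 CPM in WT. Its cKO libraries were the most uniform of any member, with a coefficient of variation of 1.87%, and the highest of them was just under the lowest WT library (log2 fold change −0.18, SE 0.10, adjusted p = 0.41, interval −0.40 to 0.04). Without WT replicate 1 the value was −0.10.

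Nucleotide breakdown and adenosine sensing were represented by Entpd1 and Adora3. Entpd1 encodes CD39, the microglial enzyme that cuts ATP and ADP to AMP. It was at 902, 927, 1016 and 909 CPM in cKO and at 949, 993 and 1013 CPM in WT, the narrowest spread of the members in WT (coefficient of variation 3.32%), and the groups overlapped (log2 fold change −0.07, SE 0.10, adjusted p = 0.78). Its interval of −0.29 to 0.15 spans 0.82-fold to 1.11-fold of WT, and without cKO replicate 3 the value was −0.11. Adora3, the adenosine A3 receptor gene, was at 141, 170, 172 and 176 CPM in cKO and at 187, 207 and 197 CPM in WT. Every cKO library was below every WT library, and the mean was 165 ± 15.9 CPM against 197 ± 9.87 CPM, or 83.7% of WT (log2 fold change −0.26, SE 0.11, interval −0.49 to −0.02). The unadjusted p was 0.036 and the adjusted p 0.26, so this difference did not pass over all genes. The log2 difference was −0.22 between libraries with Xist and −0.26 between those without it, and without cKO replicate 1, the lowest library, it was −0.21. In the reference gene table Adora3 lies within Tmigd3, and the assignment of reads between these overlapping genes is uncertain.

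Kcnk13 was at 103, 148, 148 and 174 CPM in cKO and at 139, 189 and 175 CPM in WT. Both groups were widely spread, 3 of the cKO libraries lay within the WT range, and cKO replicate 1 was the lowest of all 7. This gave a log2 fold change of −0.22 (SE 0.17, adjusted p = 0.55, interval −0.59 to 0.14), so a fall to 0.663-fold and a rise to 1.1-fold of WT are both within it. Without cKO replicate 1 the value was −0.11 and without WT replicate 1 it was −0.34.

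**Figure D2:**
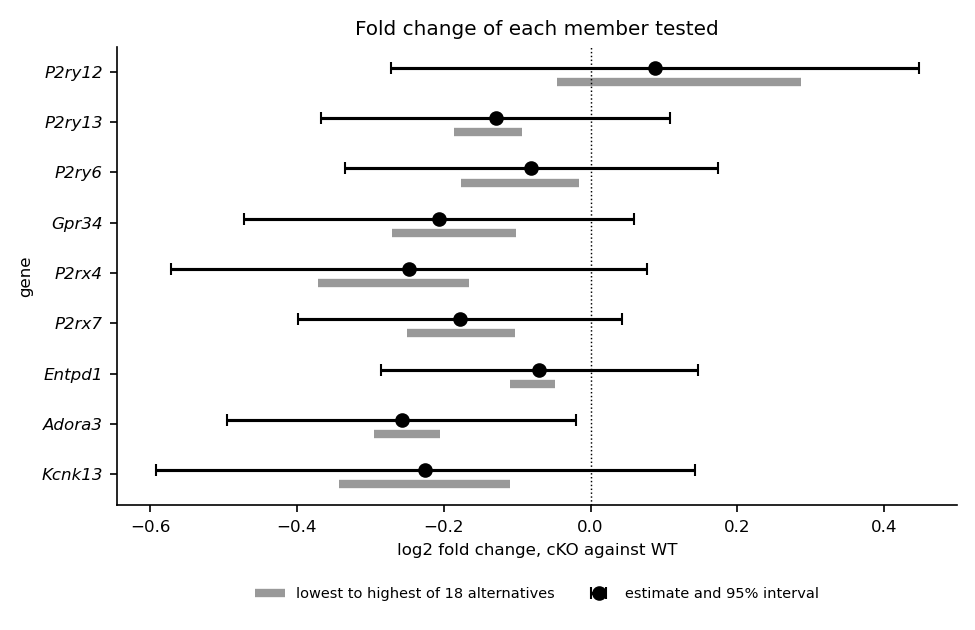
Log2 fold change of each tested member, cKO against WT (points, with 95% intervals), and the range of that value over 18 alternative analyses (grey bars). The interval of Adora3 alone ends below 0 (−0.02), and the grey bar of P2ry12 alone crosses 0.

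P2ry12 and P2ry13 did not keep a fixed ratio between mice. The ratio of P2ry12 to P2ry13 counts was 2.06, 1.76, 1.93 and 1.18 in the cKO libraries and 1.76, 1.27 and 1.35 in the WT libraries, and the groups overlapped (means 1.73 ± 0.39 and 1.46 ± 0.26). The summed level of the 10 members was 7700 ± 442 CPM in cKO against 8030 ± 719 CPM in WT. P2ry12 made up 30.7% to 41.3% of that sum. Libraries also differed in how far a gene's level moved with the GC content of its transcripts: the rank correlation over all genes was −0.51 in cKO replicate 1 and 0.43 in cKO replicate 4, the extremes of the 7. It was −0.51, −0.40 and −0.0064 in the libraries without Xist and 0.065 to 0.43 in those with it. Replicate 1 lacked Xist and was of the lower run of mouse numbers, and replicate 4 had Xist and was of the higher run. GC content, sex and run cannot be told apart in this pair. Between these mice of the same genotype Kcnk13 (55.5% GC) differed by 0.76 and P2rx4 (53.9% GC) by 0.56 on the log2 scale, higher in replicate 4, while P2ry12 (39.0% GC) differed by −0.52 and Gpr34 (36.8% GC) by −0.33. The rank correlation between this difference and GC content was 0.82 across the 9 members and 0.53 across 11918 genes. It describes genes of 1 pair of libraries picked as the extremes in GC, where a positive value follows from the choice. After offsets for GC content and transcript length the coefficient of variation within cKO was smaller for 4 of the 9 members, among them P2rx4 (15.7% before, 8.49% after) and P2ry6 (9.46% before, 4.97% after), and larger for P2ry13 (8.46% before, 19.0% after). The fold change of P2ry6 was then −0.02 and that of Kcnk13 −0.15, and no member passed.

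**Figure D3:**
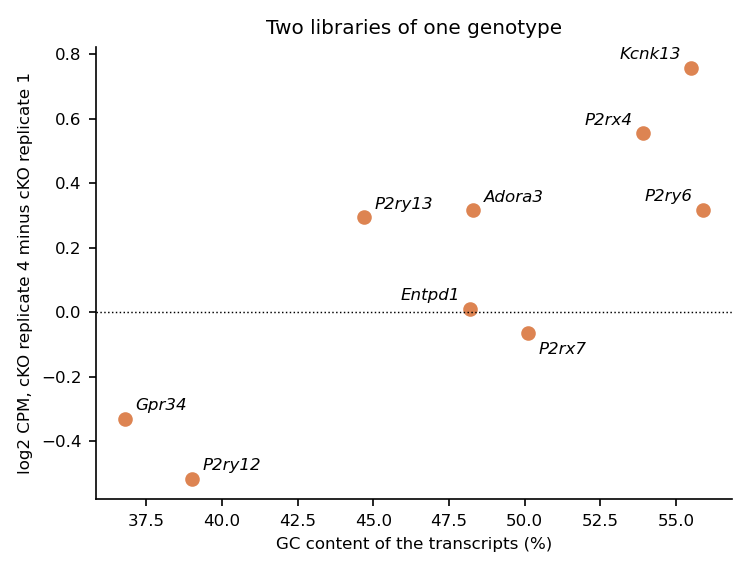
Difference in log2 CPM between cKO replicate 4 and cKO replicate 1 for each tested member, against the GC content of its transcripts in percent. These mice also differed in sex and in the run of mouse numbers. Gpr34 and P2ry12 lie lowest at 36.8% and 39.0% GC, and Kcnk13 highest at 55.5%.

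The wider pathway was examined in 10 lists of 114 genes, of which 113 were in the table and 75 were tested. None of the 75 passed in either direction with edgeR, and 18 had an unadjusted p under 0.05, as did 16.5% of all genes. With DESeq2 6 of the 75 passed, beside 4.49% of all genes, and with limma-voom 0 passed, beside 0.392%. Of the 75, 38 were above 0 and 37 below. Groups did not overlap for 9 genes on the higher side and 4 on the lower side, where 8.86% and 7.2% of all genes did so. Few other receptors were measurable. P2rx1, another ATP-gated channel, was at 40.7 ± 9.16 CPM in cKO against 37.8 ± 2.78 CPM in WT (adjusted p = 0.80), and P2ry2 (adjusted p = 0.70) and the adenosine A1 receptor gene Adora1 (adjusted p = 0.31) were under 2 CPM in every library. The ADP receptor gene P2ry1 and the UDP-glucose receptor gene P2ry14 had 2 and 12 counts in all 7 libraries together.

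Of the 28 tested G proteins and effectors of P2Y receptors, 20 were above 0, with a median of 0.13 and no gene past the threshold. Of all genes tested, 51.9% were below 0. For 7 of the 28 every cKO library was above every WT library, where 8.86% of all genes tested did so. The G protein beta subunit gene Gnb1 was at 341, 401, 393 and 384 CPM in cKO and at 271, 261 and 284 CPM in WT (a log2 fold change of 0.48, SE 0.10, adjusted p = 0.075). The gamma subunit genes Gng10 (0.61, SE 0.13, adjusted p = 0.084) and Gng5 (0.69, SE 0.16, adjusted p = 0.096) had similar values. Gnai2, chosen after its values were seen because its product is the inhibitory alpha subunit to which P2RY12 couples, was at 1876 ± 215 CPM in cKO against 1335 ± 88.3 CPM in WT (0.49, SE 0.12, adjusted p = 0.11). All 4 passed in 4 of the 18 alternatives, which also called more of all genes: DESeq2 (4.49%), sample quality weights (7.54%), Xist as a term (10.6%) and GC content and length offsets (3.16%). With the replicate block (2.4% of all genes) and the run of mouse numbers (1.42%) 3 passed, Gnai2 not among them. Without cKO replicate 1, 3 passed (all but Gng10), beside 1.19% of all genes. With no filter 2 passed (Gng10 and Gng5), beside 0.543% of all genes. In the other 10 alternatives, 6 of them with 1 library left out, 0 of the 4 passed.

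Of the lists downstream of P2rx7 and Kcnk13, the NLRP3 inflammasome (9 tested) had a median of −0.07. Nlrp3 itself, the sensor, was at 117 ± 10.3 CPM in cKO against 148 ± 12.2 CPM in WT, with no overlap (log2 fold change −0.34, SE 0.11, adjusted p = 0.16). Il1b, the cytokine it helps to release, was at 2.69 ± 0.56 CPM in cKO against 1.66 ± 0.27 CPM in WT, also without overlap (adjusted p = 0.21), and Il1a at 35.8 ± 4.15 and 41.6 ± 3.79 CPM (adjusted p = 0.41). Of the 11 other potassium channel genes tested, 8 were below 0 (median −0.12). Kcnj2, an inward rectifier, was at 16.4 ± 2.60 CPM in cKO against 23.5 ± 4.69 CPM in WT (adjusted p = 0.17). Kcnn4, a calcium-activated channel, was at 4.33 ± 1.27 and 6.24 ± 1.80 CPM (adjusted p = 0.35), and Kcna3 was under 1.4 CPM throughout. Kcnk12, the closest relative of Kcnk13, was at 66.8 CPM in cKO against 64.4 CPM in WT (adjusted p = 0.90), and the related channel gene Kcnk6 at 580 and 584 CPM (adjusted p = 0.98); both were chosen after their values were seen. The other channels named by rule were Trpm4 (−0.33), Trpm2 (−0.26) and Hvcn1 (−0.17), with adjusted p from 0.25 to 0.57.

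No tested gene of the lists for ATP release or for adenosine uptake and removal passed. The release list had 5 genes tested and a median of −0.23. In it the volume-regulated channel subunit gene Lrrc8a was at 85.9 ± 4.58 CPM in cKO against 105 ± 11.7 CPM in WT, without overlap (adjusted p = 0.21). The vesicular nucleotide transporter gene Slc17a9 had a log2 fold change of −0.41 (adjusted p = 0.29), and Calhm2 was at 81.4 ± 5.34 and 95.6 ± 13.3 CPM (adjusted p = 0.36). In the adenosine uptake and removal list (6 tested, median 0.16), adenosine deaminase, Ada, was at 8.10 ± 1.01 CPM in cKO against 6.05 ± 0.71 CPM in WT, without overlap (adjusted p = 0.24), followed by the nucleoside transporter genes Slc29a2 (−0.32) and Slc29a3 (0.14), with adjusted p of 0.47 and 0.60. Of the 4 other ectoenzyme genes tested, Enpp1 was at 12.1 ± 0.50 CPM in cKO against 11.8 ± 1.57 CPM in WT (adjusted p = 0.94), Bst1 and Cd38 were under 2 CPM, and Enpp2 ranged from 0.54 to 15.7 CPM, with high and low libraries in both groups. Of the lysophosphatidylserine genes, Abhd16a, which makes the Gpr34 ligand, was at 99.1 ± 17.5 CPM in cKO against 118 ± 8.20 CPM in WT (adjusted p = 0.40), and Abhd12, which degrades it, at 1419 ± 341 and 1402 ± 79.7 CPM (adjusted p = 0.97).

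**Figure D4:**
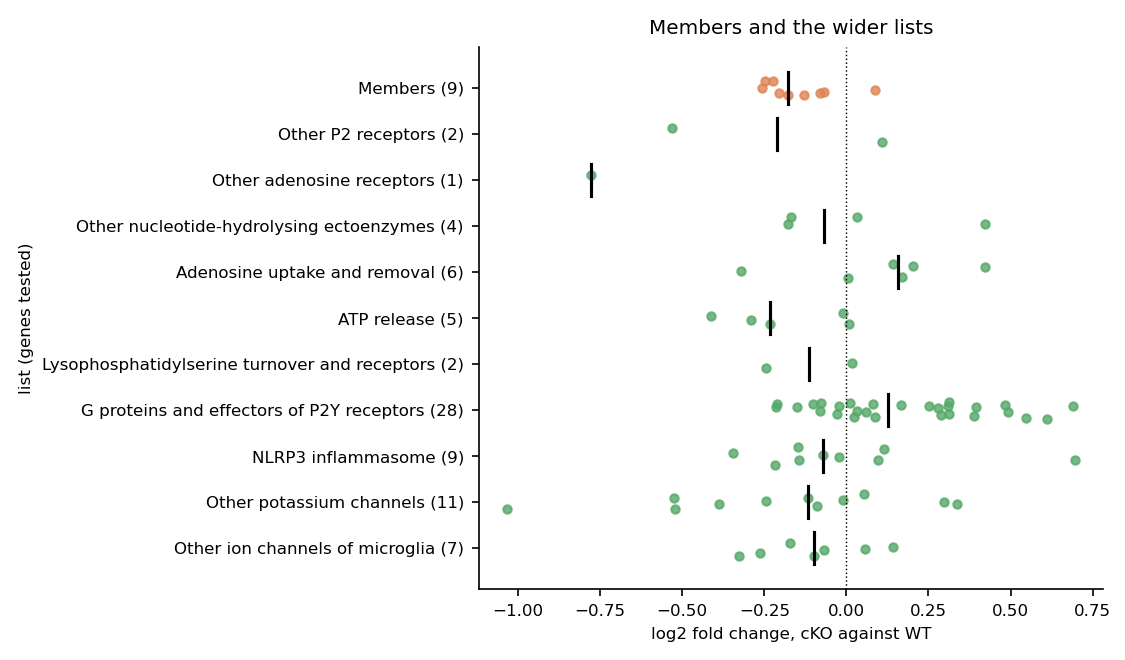
Log2 fold change, cKO against WT, of the 9 tested members (orange) and of the tested genes of each wider list (green), with the list's median as a black line and the number tested in brackets. The members' median lies at −0.18 and that of the 28 G proteins and effectors at 0.13.

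Markers of microglia and of other cells were summed in each library. The 10 microglial markers summed to 49200 to 58900 CPM in cKO and 59100 to 61400 CPM in WT, so the groups did not overlap in this sum. The sum includes Tmem119, at 3005, 3360, 3799 and 4664 CPM in cKO and at 6292, 6168 and 7212 CPM in WT. With Tmem119 taken out, the sums of the groups overlapped. Tmem119 was the 1 of 10 that passed, and 4 of the 10 were above 0 and 6 below. Cx3cr1, a gene of the sort, was at 6521 ± 326 CPM in cKO against 7603 ± 547 CPM in WT, with every cKO library below every WT library (adjusted p = 0.33). Olfml3 was at 78.4% of WT (adjusted p = 0.28) and Aif1 at 127% (adjusted p = 0.20), both with overlap. P2ry12 is also a platelet gene: the 7 platelet markers summed to 24.9 to 55.9 CPM in cKO and 43.0 to 53.9 CPM in WT, nearly all of it Gp9 (22.1 to 53.7 CPM), while Ppbp and Gp1bb had at most 3 counts in any library. Border-associated macrophage markers summed to 1180 to 1450 CPM in cKO and 1100 to 1360 CPM in WT, of which Stab1 alone was 995 to 1300 CPM. Lymphocyte markers were at most 2.73 CPM in sum, those of monocytes and neutrophils at most 10.6 CPM, with Retnlg at 0, and those of neurons at most 14.6 CPM. Astrocyte markers summed to 89.5 to 142 CPM in cKO and 135 to 142 CPM in WT, oligodendrocyte markers to 225 to 332 and 226 to 257 CPM, and endothelial and mural markers to 58.1 to 77.3 and 73.1 to 81.4 CPM, with Cldn5, Slco1a4 and Rgs5 at 0. None of these other markers that had enough counts to be tested passed. Tested were 12 border-associated macrophage, 8 astrocyte, 6 oligodendrocyte, 5 neuron, 4 endothelial and mural, 3 platelet, 2 lymphocyte and 2 monocyte and neutrophil markers. Genes induced by dissociation summed to 1080 to 1290 CPM in cKO and 1160 to 1370 CPM in WT. Of the 21 tested, 14 were above 0 and 7 below, with a median of 0.29, and none passed. Jun (125% of WT) and Egr1 (154%) were higher without overlap, and Btg2 (80.1%), Zfp36 (78.7%) and Junb (80.3%) lower without overlap, with adjusted p from 0.14 to 0.25. Over all genes tested, 8.86% were higher and 7.2% lower without overlap. The part of these marker and dissociation genes in the members' levels was not tested.

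Several members lie within or overlap the span of other genes. Overlap of exons was not examined and no strand setting was stated, so whether reads were shared is not known. P2ry12 and P2ry13 lie within Med12l, which was at 23.7 ± 3.12 CPM in cKO against 25.2 ± 6.37 CPM in WT. Gpr34 lies within Cask, at 63.4 ± 3.93 and 55.7 ± 7.09 CPM, and P2rx4 overlaps Camkk2, at 54.6 ± 2.80 and 50.05 ± 4.45 CPM. Reads counted to Med12l were thus few beside those of P2ry12 and P2ry13, and those of Cask beside Gpr34, whereas Camkk2 and P2rx4 had counts of the same order. The adjoining receptor genes Gpr171 and Gpr82 had 3 and 22 counts in all libraries together, and Igsf10, next to P2ry12, was at 5.86 and 5.74 CPM.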

How the data were processed

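The authors deposited 1 table of whole-number counts per gene symbol, not normalized, with a column for each of the 7 libraries. The submitters' processing notes name DRAGEN and the build GRCm39; for the annotation, the counting rule and strandedness, the tool settings were not given in the sources used here. Members and lists were chosen with earlier results of these data known. Genes were kept with filterByExpr of edgeR 4.0.16 (least count 10, least total 15; R 4.3.3), scaled with TMM factors and compared by the robust quasi-likelihood F test with Benjamini-Hochberg adjustment over all 11991 genes (threshold 0.05). SE is the log2 fold change divided by the square root of F, and intervals are 95%. The procedure was tested on simulated data. No library repeated another (chi-square divided by its degrees of freedom, 18.0 to 93.1 between libraries of a group). Transcript lengths and GC content are medians over protein-coding transcripts of GENCODE M21 (99.4% of genes tested); overlaps come from RefSeq GRCm38.p6, used for names and neighbours. The genes named are the members, the genes of each wider list past the threshold or the 3 with the smallest p, and checks of genotype and overlap; other genes named (of the marker, sex and dissociation lists, and Enpp1, P2ry1, P2ry14, Gnai2, Kcnk12, Kcnk6, Camkk2 and Tmigd3) were chosen after their values were seen. Alternatives were other scaling factors, DESeq2 1.42.0, limma 3.58.1, 2 filters, left-out libraries, added terms and GC and length offsets.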

Additional observations from a re-analysis of the deposited data

How the results depend on the processing

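Of 162 member fold changes recomputed under 18 alternatives, 161 kept their direction and stayed short of the threshold, and none passed it. The exception was P2ry12, at −0.046 without WT replicate 2; its range with 1 library left out ran to 0.25. With sample quality weights P2ry12 was 0.29, Gpr34 −0.10 and P2rx7 −0.12. The falls of P2rx4 (−0.35) and Kcnk13 (−0.32) were larger with these weights than in the main fit, and with the replicate block both were −0.34. The members' median was −0.11 without cKO replicate 1. The smallest adjusted p of any member was 0.068, for Kcnk13 with the replicate block. The count of all genes past the threshold moved widely from 43: it was 538 with DESeq2, 904 with limma-voom and sample quality weights, 89 with no filter, 170 with the run of mouse numbers as a term, 1273 with Xist as a term, 379 with GC content and length offsets, and from 4 to 142 when 1 library was left out. The count of wider list genes past the threshold was 0, and became 6 with DESeq2, 8 with sample quality weights, 2 with no filter, 3 with the run of mouse numbers, 9 with Xist as a term, 5 with GC content and length offsets, and from 0 to 3 with 1 library left out. With the replicate number as a block, 288 genes and 5 wider list genes passed. Same-numbered mice of both groups deviated together for number 1 (correlation 0.39) but not for numbers 2 and 3 (0.069 and −0.17). Of the WT mice only replicate 1 correlated best with its own number, so the numbers do not pair the mice throughout. Causes of these shifts were not tested. Precision is limited by 4 and 3 mice, and Nt5e had too few counts to be tested.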
